A study of Mus musculus with 16 samples.

Results

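The glucocorticoid receptor gene Nr3c1 and 9 genes tied to its action were followed in AtT-20 cells, a mouse pituitary corticotrope tumour line that secretes the peptides made from pro-opiomelanocortin. The 10 genes were taken by symbol from 24063 genes listed in each of 2 deposited tables: Nr3c1, Fkbp5, Tsc22d3, Per1, Sgk1, Dusp1, Klf9, Zbtb16, Hsd11b1 and Hsd11b2. The glucocorticoid receptor waits in the cytoplasm in a chaperone complex, binds corticosterone, enters the nucleus and switches genes on or off, in many cases at short palindromic DNA words called glucocorticoid response elements. In corticotropes it carries the negative feedback by which adrenal steroids restrain pro-opiomelanocortin, and melanotropes, the other pituitary cells that make this precursor, are known for low levels of the receptor. Pax7 is the transcription factor that specifies the melanotrope. The question was whether the receptor transcript falls when these cells make or activate Pax7, and whether the transcripts of its target genes fall with it.

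RNA depleted of ribosomal RNA was sequenced from 16 libraries in 6 groups, all of AtT-20 cells grown in medium with serum. Cells with a 3x flag-Neo construct (Neo, 2 libraries) were the untreated control for cells with a 3x flag-Pax7 construct (Pax7, 2 libraries, untreated). Cells with a 3x flag-ER-Pax7 construct, a fusion whose oestrogen receptor part answers to 4-hydroxytamoxifen, gave 3 libraries untreated (0 h) and 3 at each of 12, 24 and 96 h of 4-hydroxytamoxifen. The promoter of the constructs, whether a population was 1 clone, and whether replicates were separate cultures are not given in the sources used here, and the p-values therefore rest on a spread among libraries that may be technical. No library pairs 4-hydroxytamoxifen with cells that lack ER-Pax7, so the compound and the activated fusion cannot be told apart, nor can Pax7 and other differences between the Neo and Pax7 populations. No glucocorticoid or receptor blocker is named for any group, so the values are transcript levels in culture and not a response to hormone.

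The ER-Pax7 libraries held 61374299 to 88698872 reads over exons, and their values are scaled exon reads. Neo and Pax7 values are FPKM over whole gene bodies, introns included, so levels are never set against each other across these tables. Pax7 transcript was listed at 0 and 0.01 FPKM in Neo, against a mean of 2.32 ± 0.0537 FPKM (SD, n = 2) in Pax7. In the ER-Pax7 cells the Pax7 transcript averaged 1724 ± 39.3 scaled reads at 0 h and 1892 ± 27 at 96 h (SD, n = 3), without overlap. Reads of Esr1, the oestrogen receptor gene, averaged 1132 ± 25.7 and 1241 ± 27.6, also without overlap. The authors' deposited table gives FDR values of 0.00272 and 0.0166 for these rises. The 96 h comparison thus also differs in transcript of the fusion, and the part of this was not tested. Values printed per library were divided by normalisation factors within 0.9578 to 1.046. The sum of 8 corticotrope markers, Pomc among them, was 86253 to 110185 scaled reads with ER-Pax7 and 2444 to 2522 FPKM in Neo and Pax7. Sums of the immune, endothelial and other pituitary hormone markers each reached at most 12.43 scaled reads, those of fibroblasts 32.02 and those of folliculostellate and progenitor cells 103. Ribosomal precursor Rn45s took 2.345% of reads in 12 h replicate 2 and 0.753% to 1.263% in the other ER-Pax7 libraries.

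Promoter sequence is shown first for Sgk1 and Dusp1, because the first held the closest match to the receptor's element and moved down while the second moved up. RefSeq promoters (GRCm38.p6, 250 bases before to 50 after a start) matched 15 windows of 7 genes, 6 of them alternative starts of Sgk1. No window was matched for Zbtb16 or Hsd11b2, and none is shown for Nr3c1. The element was searched as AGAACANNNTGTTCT, which reads the same on both strands, with up to 3 mismatches over its 12 fixed letters. It was found in 4 of the 15 windows, against 14.5% of 32851 promoters, and with up to 2 mismatches in 2 windows, against 1.84%. Of the 4, 1 was the Dusp1 window and the rest were alternative starts of Sgk1. The 2 closer matches were both in Sgk1. The windows are therefore not independent, so these counts cannot show whether the element is enriched among the 7 genes, and this was not tested. The letters lay fully matched in 1 Sgk1 window, against 0.00913% of promoters. The left arm AGAACA alone, on either strand, was in 4 of 15 windows, all of Sgk1 or Tsc22d3, against 19.0% of promoters. Such a match can be part of a full element. The cyclic AMP response element TGACGTCA, which also reads the same on both strands, was in 1 of 15 windows, that of Dusp1, against 1.79% of promoters. In the sequences below, 250 bases before a start read 5′ to 3′ along the gene, capitals mark an element with up to 3 mismatches or the TGACGTCA match, and the second Sgk1 line, which ends at the start of the transcript that was counted, has neither.
Sgk1 upstream start, chr10:21993640-21993889, plus strand: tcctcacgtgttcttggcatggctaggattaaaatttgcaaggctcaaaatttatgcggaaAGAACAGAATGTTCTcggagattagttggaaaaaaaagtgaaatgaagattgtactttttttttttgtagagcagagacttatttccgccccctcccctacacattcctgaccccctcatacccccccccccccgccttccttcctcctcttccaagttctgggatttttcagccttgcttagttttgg
Sgk1 counted start, chr10:21994416-21994665, plus strand: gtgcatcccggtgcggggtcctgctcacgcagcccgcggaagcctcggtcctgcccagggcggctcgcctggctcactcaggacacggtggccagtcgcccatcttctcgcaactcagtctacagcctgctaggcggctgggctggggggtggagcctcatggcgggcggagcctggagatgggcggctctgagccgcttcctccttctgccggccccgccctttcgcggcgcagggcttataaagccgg
Dusp1, chr17:26508473-26508722, minus strand: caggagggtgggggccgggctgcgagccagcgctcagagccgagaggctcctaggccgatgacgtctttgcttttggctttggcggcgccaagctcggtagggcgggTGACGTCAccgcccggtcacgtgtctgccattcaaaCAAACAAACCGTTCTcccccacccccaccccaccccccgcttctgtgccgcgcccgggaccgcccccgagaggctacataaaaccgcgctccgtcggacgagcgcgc
The fully matched Sgk1 element lies at chr10:21993701-21993715, and its centre is 958 bases before the counted start. A match describes letters and no binding was measured.

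The receptor transcript fell in both systems, and its targets did not fall as a group. Nr3c1 fell by 31.6% in Pax7 against Neo and by 16.5% at 96 h of ER-Pax7 activation. Sgk1, a kinase gene induced by the receptor, fell as well in both. Tsc22d3 and Dusp1, induced targets that restrain inflammation and MAP kinases, rose in both, and Zbtb16 rose at 96 h. A gene was called at a Benjamini-Hochberg adjusted p under 0.05 over all genes tested with limma, on log2 of the value plus a pseudocount of 1 scaled read or 0.1 FPKM, a scale that understates the change of low genes. All 10 genes passed the filter on low values in the ER-Pax7 table and 7 in the Neo and Pax7 table, where Klf9, Zbtb16 and Hsd11b2 were too low to test. In Pax7 against Neo 5 of 7 tested genes were called, 3 higher and 2 lower, beside 36.6% of 13393 genes (18.1% higher and 18.5% lower). Among the higher calls, Hsd11b1 reached 0.1 FPKM through the Pax7 libraries alone and so entered the test by being higher there. Leaving it aside, a step chosen after seeing the data, 4 of 6 were called, 2 in each direction. The count of 5 was lower whichever library was left out, which leaves 1 in a group, and so was the count over all genes. At 96 h against 0 h 6 of 10 were called, 3 in each direction, beside 33.8% of 15188 genes (16.5% higher and 17.3% lower). At 12 h 1 of 10 was called, lower, beside 6.53% of genes (2.92% higher and 3.61% lower), and at 24 h 1 of 10, lower, beside 13.6% (5.66% higher and 7.92% lower). The comparisons against 0 h share the 0 h libraries. Across all 4 times 6 of 10 were called, beside 30.3%. Called in both systems in the same direction were 4 of the genes tested in both, Nr3c1 and Sgk1 lower and Tsc22d3 and Dusp1 higher, beside 15.6% of 12992 genes, and 0 were called in opposite directions (limma), beside 2.25%. That count of 4 was also lower whichever Neo or Pax7 library was left out, with Nr3c1 in it each time. The median log2 fold of the genes was 0.01 in Pax7 against Neo over the 6 tested apart from Hsd11b1 and 0.07 over the 10 at 96 h, and over all genes tested it was 0.00 in each comparison. At 96 h the authors' deposited table gives FDR values of 5.97e-18 for Sgk1, 0.00213 for Tsc22d3, 0.0402 for Zbtb16, 0.265 for Fkbp5 and 0.350 for Dusp1.

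**Figure D1:**
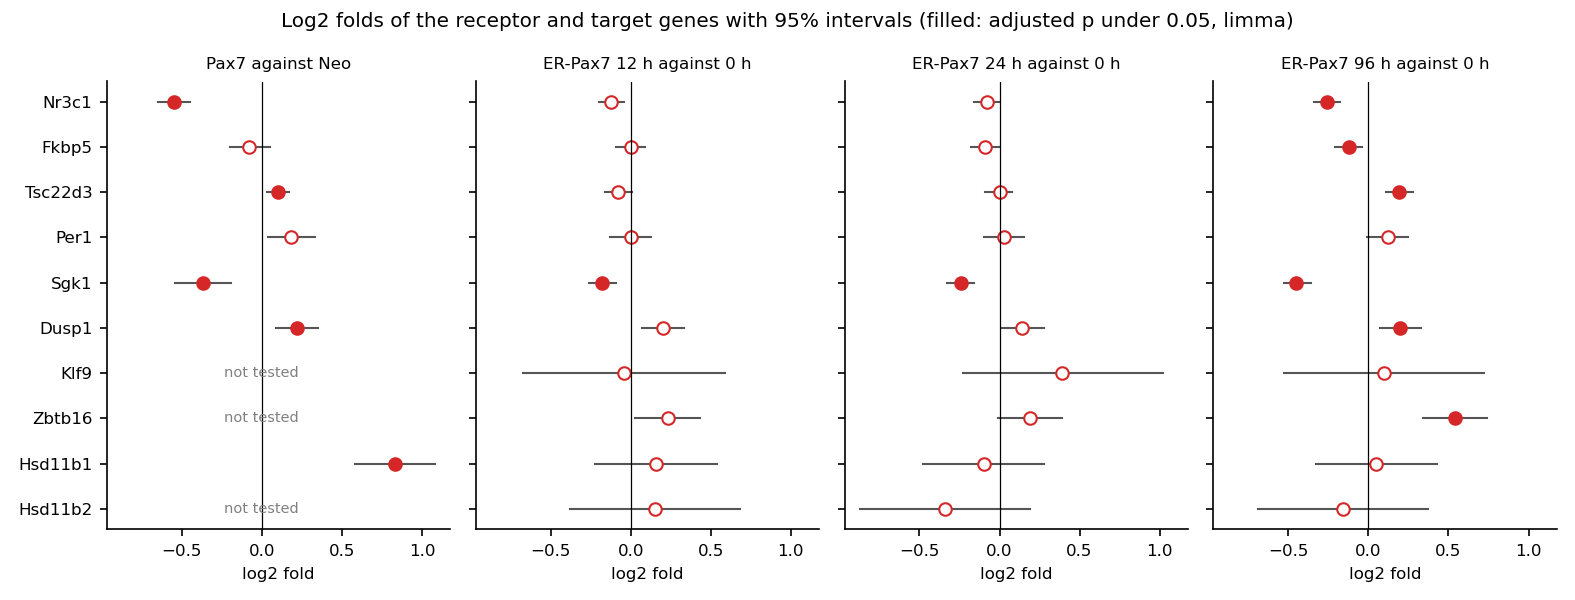
Log2 fold (x axis) of each of the 10 genes (rows) with its 95% interval in 4 comparisons; filled points have a limma adjusted p under 0.05. Nr3c1 and Sgk1 sit left of 0 in all 4 panels and are filled at Pax7 against Neo and at 96 h, whereas Tsc22d3, Dusp1 and Zbtb16 are filled to the right of 0 at 96 h. Hsd11b1 entered the Pax7 against Neo test through the Pax7 libraries alone.

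Nr3c1 (RefSeq NM_008173, mm10 chromosome 18, 39410545 to 39487245, minus strand) gave 2.47 and 2.40 FPKM in Neo, then 1.62 and 1.66 FPKM in Pax7. Both Pax7 libraries were below both Neo libraries, by far more than the gap within a group. The means were 2.44 ± 0.0519 and 1.64 ± 0.0289 FPKM (SD, n = 2), a log2 fold of −0.55 (SE 0.04; limma, adjusted p = 0.00379). The authors' deposited table gives a log2 fold of 0.0 and an FDR of 1.0 for this comparison. It also gives 0.0 for Per1, Klf9, Zbtb16, Hsd11b1 and Hsd11b2, although the deposited FPKM of Per1 and Hsd11b1 did not overlap between the groups. None of the 10 genes has an FDR under 0.05 there, Sgk1, Tsc22d3 and Dusp1 included. The deposited FPKM of Nr3c1 were 2.45 and 2.30 in Neo and 1.69 and 1.67 in Pax7. Between the same groups the sum of 5 melanotrope markers went from 0.59 to 0.63 FPKM in Neo to 3.98 to 4.14 FPKM in Pax7, with Drd2 listed at 0 in all 4 libraries, and their part in the fall of Nr3c1 was not tested. In a bulk sample fewer cells with the transcript and less transcript per cell cannot be told apart.

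With ER-Pax7, Nr3c1 read 1876, 2046 and 2022 scaled reads at 0 h, 1789, 1896 and 1768 at 12 h, 1853, 1856 and 1902 at 24 h, and 1595, 1657 and 1710 at 96 h. The 96 h libraries were the lowest of the course and overlapped no other time, while 12 h and 24 h overlapped 0 h through the low 0 h replicate 1. The means were 1981 ± 91.9, 1818 ± 68.8, 1870 ± 27.7 and 1654 ± 57.2 (SD, n = 3). Against 0 h the log2 fold was −0.12 at 12 h (SE 0.04; limma, adjusted p = 0.0662) and −0.08 at 24 h (SE 0.04; limma, adjusted p = 0.191), neither called, and −0.26 at 96 h (95% interval −0.34 to −0.18; limma, adjusted p = 2.83e-05). The 96 h libraries were also below those at 24 h (−0.18; limma, adjusted p = 0.00427), whereas 24 h against 12 h read 0.04 (limma, adjusted p = 0.817). The melanotrope markers summed to 1997 to 2189 scaled reads at 0 h and 2572 to 2768 at 96 h. Most of each sum was Megf11, at 1817 to 1997 and 1966 to 2099. Pcsk2 stood at 179 to 191 scaled reads at 0 h and 486 to 542 at 96 h. Oacyl stood at 0.89 to 2 and 117 to 124, and Drd2 was listed at 0 at both times. The part of these markers in the fall of Nr3c1 was not tested. The authors' deposited table gives −0.26 with an FDR of 7.46e-08 for 96 h against 0 h. The 12 h difference was called by DESeq2 on the recovered reads (DESeq2, adjusted p = 0.0376), and by limma without 0 h replicate 1 (−0.16; limma, adjusted p = 0.0128) or without 12 h replicate 2, the library with the high Rn45s share (−0.15; limma, adjusted p = 0.0253), and the 24 h difference without 0 h replicate 1 (−0.12; limma, adjusted p = 0.0471).

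**Figure D2:**
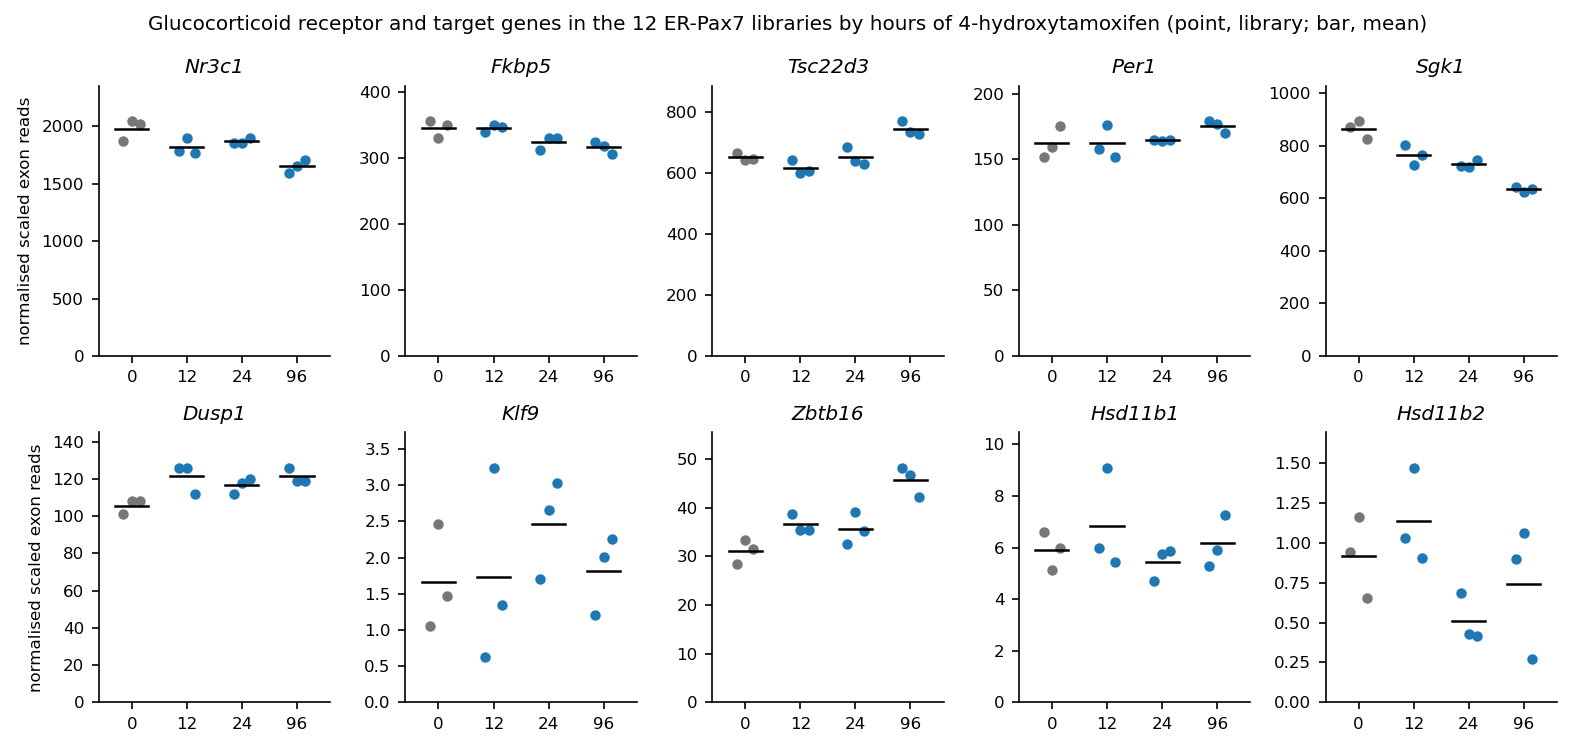
Normalised scaled exon reads (y axis, from 0, with its own range in each panel) of the 10 genes in the 12 ER-Pax7 libraries by hours of 4-hydroxytamoxifen (x axis); points are libraries and bars are means of 3. Nr3c1 ends between 1595 and 1710 and Sgk1 between 625 and 642 at 96 h, below every earlier library, while Tsc22d3 and Zbtb16 end above theirs.

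Fkbp5 encodes a co-chaperone that lowers the receptor's affinity for its ligand and is itself induced by the receptor, which closes a short feedback loop. Fkbp5 (NM_010220, chromosome 17, 28398753 to 28486149, minus strand) read 0.505 and 0.512 FPKM in Neo and 0.478 and 0.476 in Pax7. The Pax7 libraries lay below the Neo libraries by a small margin that was not called, and the deposited values, 0.50 and 0.49 against 0.50 and 0.48, overlapped (−0.08, 95% interval −0.20 to 0.05; limma, adjusted p = 0.249). In the time course Fkbp5 read 356, 330 and 350 scaled reads at 0 h, 340, 351 and 347 at 12 h, 313, 330 and 331 at 24 h, and 325, 318 and 307 at 96 h. The 96 h libraries lay just under the lowest 0 h library, and 12 h ran level with 0 h. The log2 fold at 96 h was −0.12 (SE 0.04; limma, adjusted p = 0.0287), and Fkbp5 fell by 8.29%. The call was lost without 0 h replicate 1, 0 h replicate 3, 96 h replicate 2 or 96 h replicate 3 (limma, adjusted p = 0.101, 0.079, 0.0684 and 0.131).

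Sgk1 encodes serum and glucocorticoid regulated kinase 1, which acts on ion channels and transporters. Among the tested targets within the 10 genes it fell the most in Pax7 against Neo and at 96 h. Sgk1 (NM_011361, chromosome 10, 21994666 to 21999902, plus strand) read 15 and 14.4 FPKM in Neo and 12.0 and 10.8 in Pax7. Both Pax7 libraries were lower, with more spread between them than between the Neo libraries. The means were 14.7 ± 0.404 and 11.4 ± 0.894 FPKM (SD, n = 2), a log2 fold of −0.37 (SE 0.06; limma, adjusted p = 0.0202). The call was lost without Neo replicate 1 or 2 (limma, adjusted p = 0.072 and 0.0599) and when values were scaled by library totals alone (−0.29; limma, adjusted p = 0.091).

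The course of Sgk1 under ER-Pax7 was stepwise. It read 873, 894 and 828 scaled reads at 0 h, 802, 726 and 766 at 12 h, 723, 718 and 748 at 24 h, and 642, 625 and 635 at 96 h. Every induced library was below every 0 h library, and the 96 h libraries were below all others. Group means were 865 ± 33.3, 765 ± 38.1, 730 ± 16.4 and 634 ± 8.48 (SD, n = 3). Against 0 h the log2 fold was −0.18 at 12 h (limma, adjusted p = 0.00725), −0.24 at 24 h (limma, adjusted p = 0.000201) and −0.45 at 96 h (SE 0.04; limma, adjusted p = 2.88e-08), the last a decrease of 26.6%. The step from 24 h to 96 h was −0.20 (limma, adjusted p = 0.00176), and that from 12 h to 24 h was −0.07 and not called (limma, adjusted p = 0.667). The 12 h call was lost without 0 h replicate 2 (−0.16; limma, adjusted p = 0.0553).

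Tsc22d3, also called Gilz, encodes a leucine zipper protein that mediates much of the anti-inflammatory action of glucocorticoids. The tables list different transcripts of it, both on the minus strand of chromosome X: NM_010286 (140539529 to 140543187) for scaled reads and NR_122039 (140539529 to 140542668) for FPKM. Tsc22d3 read 668, 643 and 646 scaled reads at 0 h, 643, 602 and 607 at 12 h, 686, 639 and 631 at 24 h, and 771, 736 and 730 at 96 h. The 96 h libraries stood above all others, and the earlier times overlapped one another. The log2 fold at 96 h was 0.19 (SE 0.04; limma, adjusted p = 0.000893), an increase of 14.3%, and it was also 0.19 against 24 h (limma, adjusted p = 0.00273). At 12 h and 24 h it was −0.08 and 0.00 (limma, adjusted p = 0.342 and 0.989). In FPKM Tsc22d3 read 25.3 and 25.4 in Neo and 27.2 in both Pax7 libraries, a log2 fold of 0.10 (SE 0.03; limma, adjusted p = 0.0445). That call was lost without Neo replicate 1 or 2 or Pax7 replicate 1 or 2 (limma, adjusted p = 0.127, 0.116, 0.183 and 0.222).

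Dusp1 encodes a phosphatase that switches off p38 and JNK and is induced by glucocorticoids, by serum and by cyclic AMP. Dusp1 (NM_013642, chromosome 17, 26505591 to 26508472, minus strand) read 101, 108 and 108 scaled reads at 0 h, 126, 126 and 112 at 12 h, 112, 118 and 120 at 24 h, and 126, 119 and 119 at 96 h. All 9 induced libraries were above all 3 at 0 h, and the induced times overlapped one another. The log2 fold was 0.20 at 12 h (limma, adjusted p = 0.065), 0.14 at 24 h (limma, adjusted p = 0.148) and 0.20 at 96 h (SE 0.06; limma, adjusted p = 0.0194). The 96 h call was lost without 0 h replicate 1 or 96 h replicate 1 (limma, adjusted p = 0.077 and 0.082), and the 12 h difference was called without 12 h replicate 3 (0.25; limma, adjusted p = 0.0257). In FPKM Dusp1 read 5.17 and 4.92 in Neo and 6.08 and 5.71 in Pax7, with no overlap. The log2 fold was 0.22 (SE 0.05; limma, adjusted p = 0.0331), which was lost without Neo replicate 1 or 2 or Pax7 replicate 1 or 2 (limma, adjusted p = 0.0614, 0.108, 0.116 and 0.0683).

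Zbtb16, also called Plzf, encodes a zinc finger repressor and responds strongly to glucocorticoids in many tissues. Zbtb16 (NM_001033324, chromosome 9, 48654297 to 48835945, minus strand) was listed at 0.02 FPKM in all 4 Neo and Pax7 libraries, under the filter, and was not tested there. In the time course Zbtb16 read 28.4, 33.3 and 31.6 scaled reads at 0 h, 38.7, 35.5 and 35.5 at 12 h, 32.6, 39.2 and 35.3 at 24 h, and 48.2, 46.8 and 42.1 at 96 h. The 96 h libraries were the highest and overlapped no other time. These values stood on 241 to 482 reads per library. The log2 fold at 96 h was 0.54 (SE 0.10; limma, adjusted p = 0.000169), an increase of 45.5% and the highest fold at that time among the 10 genes. The rise from 24 h to 96 h was 0.35 (limma, adjusted p = 0.019), and it was lost without 24 h replicate 1, 96 h replicate 1 or 96 h replicate 2 (limma, adjusted p = 0.0801, 0.0845 and 0.0735).

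Per1 encodes a clock protein of the negative limb, and glucocorticoids induce it within hours. The scaled reads are of NM_011065 (chromosome 11, 69098956 to 69109957, plus strand) and the FPKM of NM_001159367 (69100158 to 69109957). Per1 read 152, 159 and 175 scaled reads at 0 h, 158, 176 and 152 at 12 h, 165, 164 and 165 at 24 h, and 179, 177 and 170 at 96 h. The 96 h libraries reached into the range of 0 h. The log2 fold at 96 h was 0.12 (95% interval −0.01 to 0.25; limma, adjusted p = 0.145), and it was called without 0 h replicate 3 (0.18; limma, adjusted p = 0.0395). In FPKM Per1 read 3.23 and 2.95 in Neo and 3.54 and 3.51 in Pax7. These groups did not overlap, and the log2 fold of 0.18 was not called (SE 0.05; limma, adjusted p = 0.0619) except without Neo replicate 1 (0.25; limma, adjusted p = 0.0404).

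Klf9 encodes a zinc finger transcription factor that glucocorticoids induce in brain and liver, and it was close to the floor here. Klf9 (NM_010638, chromosome 19, 23141226 to 23166911, plus strand) stood on 6 to 31 reads per ER-Pax7 library. Its means were 1.66 ± 0.717, 1.74 ± 1.35, 2.47 ± 0.679 and 1.82 ± 0.551 scaled reads at 0, 12, 24 and 96 h (SD, n = 3). All times overlapped. The 95% interval of the log2 fold at 96 h ran from −0.53 to 0.72 (limma, adjusted p = 0.838), so a change of the size seen for Sgk1 or Zbtb16 was not detectable at this depth. In the Neo and Pax7 table Klf9 was listed at 0.01 or 0.02 FPKM.

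**Figure D3:**
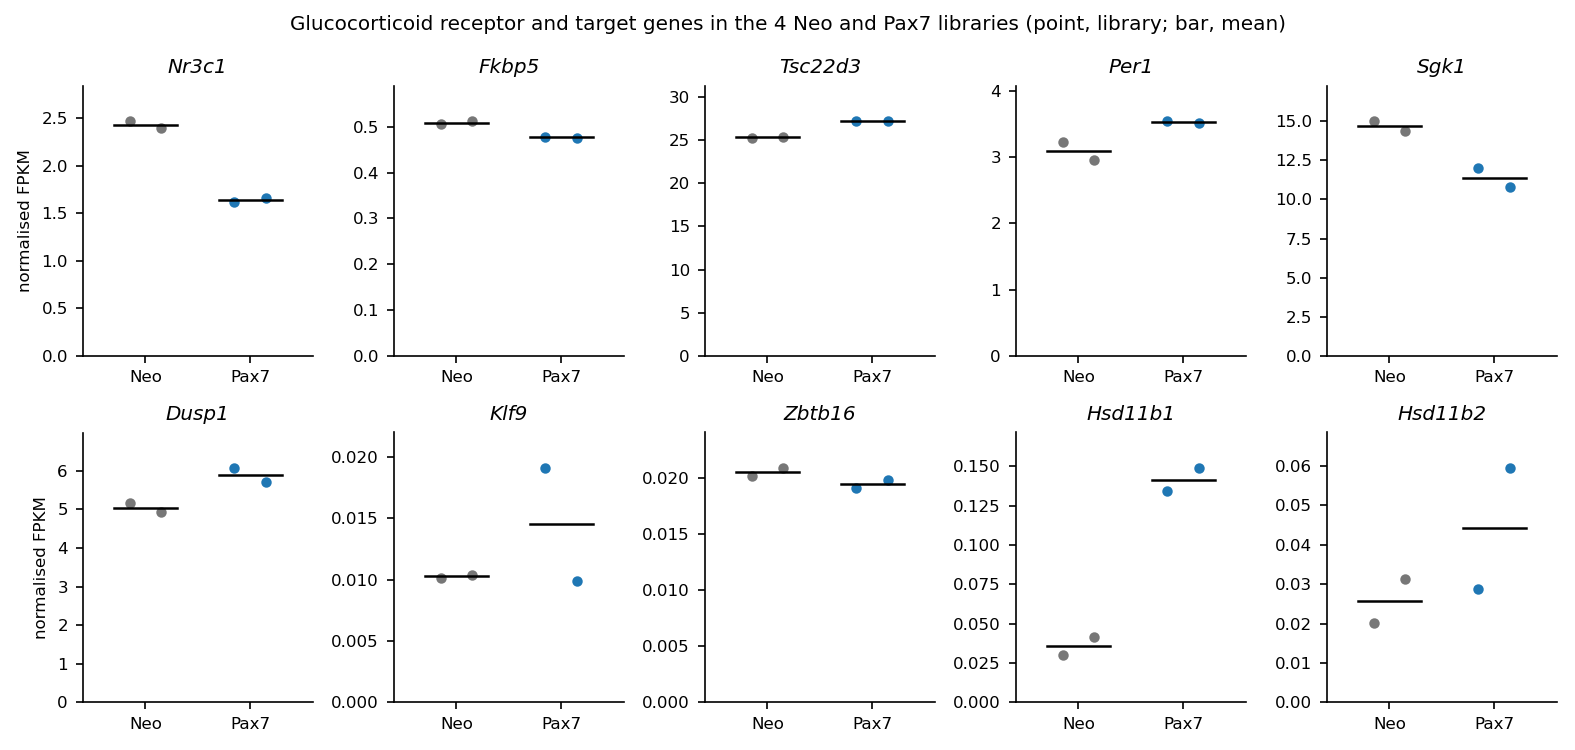
Normalised FPKM (y axis, from 0, with its own range in each panel) of the 10 genes in Neo and Pax7 cells (x axis); points are libraries and bars are means of 2. Nr3c1 and Sgk1 are lower in both Pax7 libraries and Tsc22d3, Per1, Dusp1 and Hsd11b1 higher, while Klf9, Zbtb16 and Hsd11b2 lie at or below 0.0595 FPKM.

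The enzymes that set the local supply of the hormone were scarce. Hsd11b1 encodes 11-beta-hydroxysteroid dehydrogenase 1, which regenerates active corticosterone inside cells, and Hsd11b2 encodes the enzyme that inactivates it. Hsd11b1 was listed at 0.03 and 0.04 FPKM in Neo and 0.14 and 0.15 FPKM in Pax7, counted on NM_001044751 (chromosome 1, 193221641 to 193242360, minus strand). Both Pax7 libraries were above both Neo libraries. The ratio of the deposited means was 4.14. Between the extreme single libraries, with rounding of 0.005 FPKM either way allowed for, the ratio ran from 3.0 to 6.2. The gene passed the filter through the 2 Pax7 libraries alone, so the filtered test is no evidence of a rise. With no filter on low values the log2 fold was 0.83 (limma, adjusted p = 0.0124), and no fit was made with a Pax7 library left out.

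In the ER-Pax7 libraries Hsd11b1, there counted on the longer NM_008288 (193221641 to 193264045), stood on 41 to 87 reads. It read 6.60, 5.14 and 5.97 scaled reads at 0 h, 5.98, 9.10 and 5.43 at 12 h, 4.69, 5.75 and 5.86 at 24 h, and 5.30, 5.92 and 7.27 at 96 h. All times overlapped 0 h. The log2 fold at 96 h was 0.05 (95% interval −0.33 to 0.43; limma, adjusted p = 0.865). The interval does not reach the log2 fold seen in Pax7 cells, but the transcripts counted, the regions counted and the pseudocounts differ between the tables and the difference between the systems was not tested. Hsd11b2 (NM_008289, chromosome 8, 105518746 to 105523988, plus strand) stood on 3 to 14 reads per ER-Pax7 library and between 0.02 and 0.06 FPKM. Its 95% interval at 96 h ran from −0.69 to 0.37 (limma, adjusted p = 0.667), too wide at this depth to show a moderate change.

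Per kilobase of exon, the order of the genes changed as the cells were induced. At 0 h Sgk1 led with 354 scaled reads per kilobase, followed by Tsc22d3 with 331 and Nr3c1 with 314. At 96 h Tsc22d3 led with 379, and Nr3c1 with 262 and Sgk1 with 260 were level within their spread. Over the 12 libraries the remaining genes followed with 86.1 for Fkbp5, 60.1 for Dusp1, 35.8 for Per1, 7.30 for Zbtb16, 4.46 for Hsd11b1, 0.590 for Klf9 and 0.449 for Hsd11b2. The receptor stood above 84.3% of tested genes on this scale.

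Between 24 h and 12 h 0 of the 10 genes were called with limma, beside 0.158% of all genes, and edgeR and DESeq2 on the recovered reads also called 0. Fkbp5 was the 1 gene with an unadjusted p under 0.05 there (−0.09; limma, adjusted p = 0.553). Between 96 h and 24 h 4 of the 10 were called, beside 12.6% (6.03% higher and 6.62% lower). Nr3c1 and Sgk1 were lower, Tsc22d3 and Zbtb16 higher. Groups that did not overlap were more common than calls. In Pax7 against Neo 7 of 7 tested genes had separate groups on the normalised scale, or 6 of 6 without Hsd11b1, beside 73.8% of all genes. Against 0 h the count was 3 of 10 at 12 h, beside 20.3%, 2 of 10 at 24 h, beside 28.2%, and 6 of 10 at 96 h, beside 45.9%.

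The genes whose course was most like that of Nr3c1 were Mettl9, Gstm4, Cspp1, Tcf4 and Creb1. Likeness was the root mean square difference of log2 values, each centred on its own 0 h mean, over the 12 ER-Pax7 libraries, among 11270 genes with a mean log2 value of at least 5. It was 0.0283 for Mettl9 and 0.0424 to 0.0444 for the other 4, against a median of 0.181. On this measure Fkbp5 ranked 1423, Sgk1 3144, Per1 7622, Tsc22d3 8920, Dusp1 10309 and Zbtb16 11040. Of the 5 likest genes, Creb1, which encodes the cyclic AMP response element binding protein, was also lower in Pax7 than in Neo (−0.34; limma, adjusted p = 0.00755). In that comparison Mettl9 read −0.01, Tcf4 −0.01, Gstm4 −0.14 and Cspp1 −0.15 (limma, adjusted p = 0.946, 0.793, 0.186 and 0.0856).

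The rest of the pathway was read from 8 lists. Beside their counts stand the shares of all genes tested that were called, 36.6% in Pax7 against Neo and 33.8% at 96 h against 0 h. Of 14 receptor chaperones, 3 were called in Pax7 against Neo, 1 higher and 2 lower, and 2 at 96 h, both higher. Both shares lie below those of all genes. Scaled by library totals the first count was 1 higher and 0 lower, beside 2600 higher and 1241 lower of 13393 genes. Without 1 library the 96 h count ran from 1 to 3, beside 4141 to 4583 of all genes, against 5129 with every library. In Pax7 against Neo leaving out a library leaves 1 in a group, and fewer chaperones and fewer of all genes were called. Hsp90ab1, the abundant Hsp90 that holds the receptor ready for ligand, rose in Pax7 cells (0.25; limma, adjusted p = 0.0246), and Fkbp4, the immunophilin that competes with Fkbp5, fell (−0.20; limma, adjusted p = 0.0183). At 96 h these read 0.09 and −0.05 (limma, adjusted p = 0.12 and 0.257). The import factor Ipo13, which carries the receptor into the nucleus, rose at 96 h (0.25; limma, adjusted p = 0.00162). Ppid, a cyclophilin of the same complex, rose at 96 h (0.15; limma, adjusted p = 0.0334), and the chaperone Hspa4 fell in Pax7 cells (−0.13; limma, adjusted p = 0.0384). Of the receptor coregulators, 4 of 18 tested were called in Pax7 cells, 3 higher and 1 lower, and 5 of 19 at 96 h, 3 higher and 2 lower. Without 1 library 3 to 4 were called at 96 h, beside 4141 to 4583 of all genes. In Pax7 cells, where that leaves 1 library in a group, fewer were called, as over all genes. The histone methyltransferase Ehmt2 fell in Pax7 cells (−0.29; limma, adjusted p = 0.00668), and the acetyltransferase Crebbp rose at 96 h (0.20; limma, adjusted p = 0.0092). The corepressor Ncor1 and the remodeller Smarca4 rose in Pax7 cells (0.19 and 0.18; limma, adjusted p = 0.0255 and 0.0274). At 96 h the glycosylase Tdg rose (0.19; limma, adjusted p = 0.0281), and the deacetylase Hdac2 and the Mediator subunit Med14 fell (−0.15 and −0.12; limma, adjusted p = 0.00226 and 0.0269). The coactivator Ncoa2 read −0.01 and 0.04 (limma, adjusted p = 0.92 and 0.525).

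The related mineralocorticoid receptor Nr3c2, which binds the same hormone, was listed at 0 in the 4 Neo and Pax7 libraries, stood at most at 0.351 scaled reads in the ER-Pax7 libraries, and was not tested. Of 7 other steroid and orphan receptors, 1 was tested in Pax7 against Neo and 3 at 96 h. Esrra, an orphan regulator of mitochondrial genes, fell at 96 h (−0.33; limma, adjusted p = 1.61e-05) and read 0.03 in Pax7 cells (limma, adjusted p = 0.511).

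Other genes known to be induced by glucocorticoids went both ways, against 36.6% and 33.8% of all genes called in the same comparisons. Of 42 listed, 14 of 30 tested were called in Pax7 against Neo, 9 higher and 5 lower, with a median log2 fold of 0.09 over those tested. Leaving out 1 library in that comparison leaves 1 in a group, and fewer were then called, as over all genes. At 96 h 20 of 35 were called, 11 higher and 9 lower, with a median of −0.02. Foxo1, a transcription factor of fasting and atrophy, rose in both (0.94 and 0.73; limma, adjusted p = 0.00503 and 1.1e-07), as did Tnfaip3, a brake on NF-kappaB (0.86 and 0.57; limma, adjusted p = 0.0036 and 5.81e-07). Glul, glutamine synthetase, fell in both (−0.66 and −0.24; limma, adjusted p = 0.00203 and 8.77e-06). Nfkbia, the NF-kappaB inhibitor, rose at 96 h (0.72; limma, adjusted p = 3.65e-09) and read 0.03 in Pax7 cells (limma, adjusted p = 0.71). The stress genes Gadd45b and Gadd45g fell at 96 h (−0.77 and −0.86; limma, adjusted p = 1.33e-07 and 5.2e-06) and read 0.11 and 0.12 in Pax7 cells (limma, adjusted p = 0.382 and 0.171).

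Genes that glucocorticoids repress in corticotropes were also mixed. In Pax7 cells 4 of 9 tested were called, beside 36.6% of all genes. At 96 h 5 of 10 were called, 3 higher and 2 lower, beside 33.8%. Without 1 library 4 to 5 were called at 96 h, beside 4141 to 4583 of all genes, against 5129 with every library. In Pax7 cells, where that leaves 1 library in a group, fewer were called, as over all genes. Both lower calls in Pax7 cells, Crhr1 and Egr1, entered the test through the Neo libraries alone, and without them 2 of 7 were called, both higher. Pomc, the classic target of receptor feedback, read −0.09 in Pax7 cells and −0.03 at 96 h (limma, adjusted p = 0.27 and 0.698), after a fall at 24 h (−0.32; limma, adjusted p = 0.000205). Crhr1, the receptor for corticotropin releasing hormone, fell at 96 h (−0.54; limma, adjusted p = 0.00603). In FPKM Crhr1 read 0.111 and 0.125 in Neo and 0.0478 and 0.0496 in Pax7, a log2 fold of −0.55 with no filter (limma, adjusted p = 0.0146) that was not called without Pax7 replicate 1 or 2 (limma, adjusted p = 0.0665 and 0.067) and not tested without either Neo library. Lif, a cytokine that drives Pomc, rose in both comparisons (1.49 and 1.08; limma, adjusted p = 0.00244 and 1.15e-08). The convertase Pcsk1 rose in both as well (0.74 and 0.14; limma, adjusted p = 0.00179 and 0.00226), after falls at 12 h and 24 h (−0.14 and −0.20; limma, adjusted p = 0.0097 and 0.000205). Nr4a2, a nuclear receptor that activates Pomc and is opposed by the glucocorticoid receptor, fell at 12 h, 24 h and 96 h (−0.56, −0.61 and −0.44; limma, adjusted p = 2.83e-07, 4.26e-08 and 1.18e-06), rose from 24 h to 96 h (0.17; limma, adjusted p = 0.0377) and read −0.11 in Pax7 cells (limma, adjusted p = 0.178). Its relative Nr4a1 read −0.16 in Pax7 cells and −0.10 at 96 h (limma, adjusted p = 0.408 and 0.495). Egr1 read 0.111 and 0.104 FPKM in Neo and 0.0478 and 0.0595 in Pax7, a log2 fold of −0.44 with no filter (limma, adjusted p = 0.0243). It was not called without Pax7 replicate 1 or 2 (limma, adjusted p = 0.107 and 0.0778) and not tested without either Neo library.

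Among 13 genes of corticosteroid metabolism and export, 3 of 6 tested were called in Pax7 cells, 2 higher and 1 lower, beside 36.6% of all genes. At 96 h 1 of 8 was called, lower, beside 33.8%. The first count was lower whichever library was left out, which leaves 1 in a group, and so was the count over all genes. Akr1c14, a 3-alpha-hydroxysteroid dehydrogenase that reduces steroids, fell in both (−0.61 and −1.59; limma, adjusted p = 0.00687 and 1.42e-14), with means of 1065 ± 8.99, 552 ± 33.7, 509 ± 40.1 and 354 ± 25 scaled reads in order of time (SD, n = 3). H6pd, which supplies the cofactor of Hsd11b1, rose in Pax7 cells (0.21; limma, adjusted p = 0.0228) and read 0.08 at 96 h (limma, adjusted p = 0.136). Star, which brings cholesterol into mitochondria, rose in Pax7 cells (0.37; limma, adjusted p = 0.0382). Among 18 clock genes 4 of 15 tested were called in each comparison, 2 in each direction, shares below the 36.6% and 33.8% of all genes. Scaled by library totals the count in Pax7 cells was 2 higher and 0 lower, beside 2600 higher and 1241 lower of 13393 genes. It was lower than 4 whichever library was left out, which leaves 1 in a group, and calls over all genes were fewer too. Arntl, the positive partner of the clock, rose in both (0.29 and 0.23; limma, adjusted p = 0.0317 and 0.000626), Dbp, an output gene, fell in both (−0.28 and −0.28; limma, adjusted p = 0.0344 and 0.00356), and Per2 read −0.07 in both (limma, adjusted p = 0.571 and 0.545). Tef rose and Nr1d1 fell in Pax7 cells (0.29 and −0.30; limma, adjusted p = 0.0147 and 0.0275), while Cry1 rose and Per3 fell at 96 h (0.19 and −0.37; limma, adjusted p = 0.00836 and 0.000392).

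Dusp1 is also an immediate early gene, and that list moved in both directions too. Of 30 genes, 11 of 26 tested were called in Pax7 cells, 8 higher and 3 lower, beside 36.6% of all genes. At 96 h 12 of 27 were called, 7 higher and 5 lower, beside 33.8%. The first count was lower whichever library was left out, which leaves 1 in a group, and so was that of all genes. Without Egr1 the first count was 8 higher and 2 lower of 25, beside 36.6% of all genes. Scaled by library totals it was 8 higher and 1 lower of 26, beside 2600 higher and 1241 lower of 13393 genes. The sister phosphatases Dusp5 (0.62 and 0.31; limma, adjusted p = 0.00283 and 0.000174) and Dusp4 (0.41 and 0.33; limma, adjusted p = 0.00362 and 4.58e-07) rose in both. Crem, a cyclic AMP responsive repressor, rose in both as well (0.68 and 0.57; limma, adjusted p = 0.00943 and 5.63e-06). Klf6, a zinc finger factor, fell at 96 h (−0.17; limma, adjusted p = 0.00148). In Pax7 against Neo, 12 of the 26 genes named by rule and called kept their call with each library left out in turn, and Hsp90ab1, Fkbp4, Hspa4, Ncor1, Smarca4, Crhr1, Egr1, H6pd, Star, Arntl, Dbp, Tef, Nr1d1 and Ier5 did not. At 96 h 25 of 30 kept theirs, and Ppid, Tdg, Med14, Ncor1 and Egr2 did not.

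**Figure D4:**
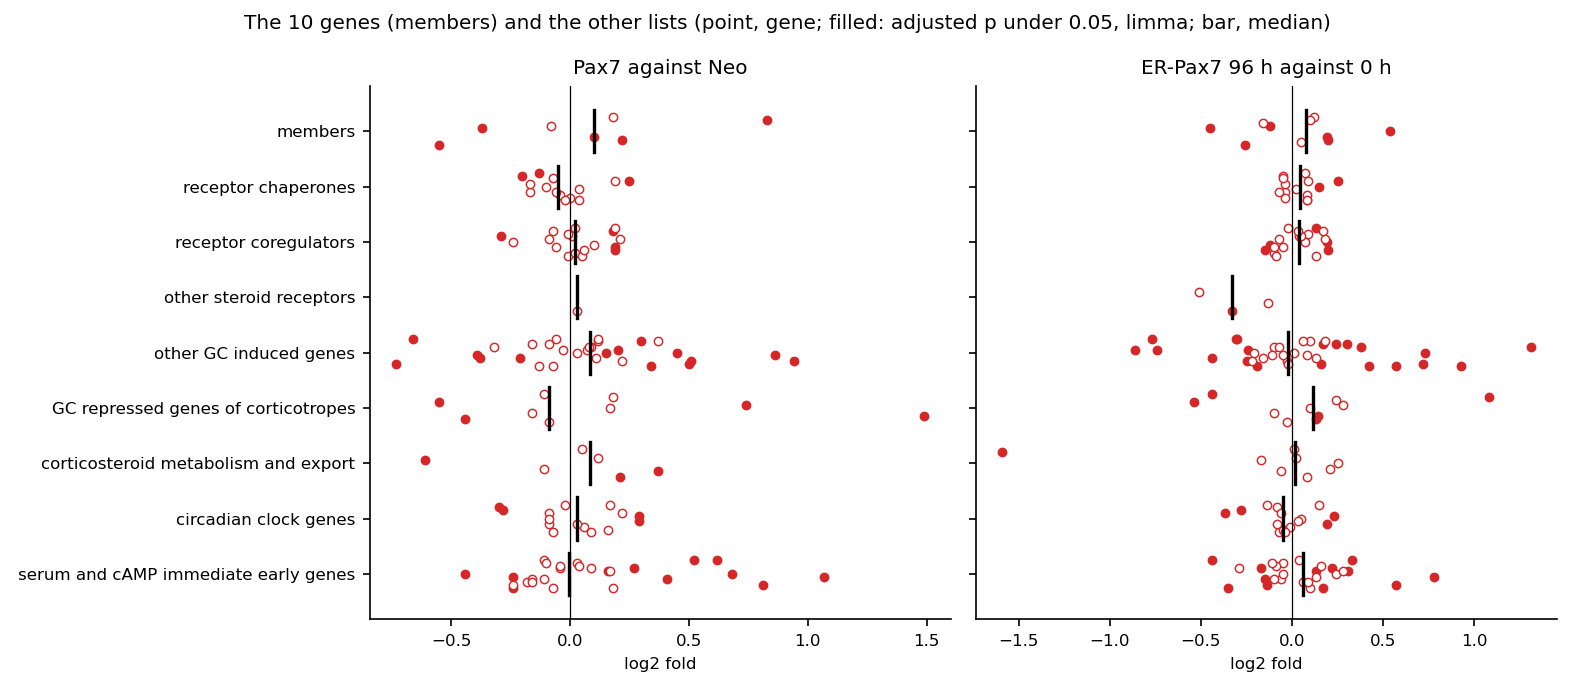
Log2 fold (x axis) of each tested gene (point) of the 10 genes and the 8 other lists (rows) in Pax7 against Neo and at 96 h against 0 h; filled points have a limma adjusted p under 0.05 and bars are medians. Every list with more than 3 tested genes has points on both sides of 0, and the medians stay between −0.09 and 0.12 apart from the list of other steroid receptors at 96 h, with 3 tested genes. Without Crhr1 and Egr1 the median of the corticotrope list in Pax7 against Neo was 0.17 in place of −0.09.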

How the data were processed

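The submitters' processing notes name the build mm10 and the tools TopHat, HOMER and edgeR, with no versions given. Per the file headers, HOMER counted ER-Pax7 reads over exons of mm10 genes with no strand setting. The deposited ER-Pax7 signal holds these reads scaled to a common total in each library. The authors deposited Neo and Pax7 values as FPKM over gene bodies, rounded to 2 decimals and scaled to a common total. Log2 folds and a p-value or FDR of the authors' deposited table are printed only where that table is named. Without strand, overlapping and antisense transcripts cannot be told apart.

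Groups and replicate numbers come from the labels. ER-Pax7 values were whole multiples of the worth of 1 read, within 0.1 reads, which gave 61374299 to 88698872 reads per library. In 96 h replicate 1, where a read is worth close to 0.1, low values alone cannot show this step. Between 20 and 200 scaled reads 100% of its 4369 values were whole reads and 7.1% lay on 1 decimal. Reads carry no molecular identifiers. For Neo and Pax7 no depth was used. Genes were kept at a deposited value of at least 1 scaled read in 3 libraries, or 0.1 FPKM in 2. TMM factors from edgeR 4.0.16 divided the values, which were logged with a pseudocount of 1 or 0.1, and tested in R 4.3.3 by limma 3.58.1 with a trended prior. The 12 ER-Pax7 libraries shared 1 model, with Benjamini-Hochberg adjustment over all genes tested. The script was tested on simulated data. The smallest p of an exact permutation test would be 0.1 for 3 libraries a group and 0.333 for 2, and none was run. Neither table holds raw counts, so edgeR served as an alternative.

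The 10 genes, the 8 lists and the tests were chosen with earlier results of these data known. Named from each list are the 2 genes with the smallest adjusted p among those called in each direction in Pax7 against Neo and at 96 h, plus Nr3c2, Hsp90ab1, Fkbp4, Ncoa2, Pomc, Crhr1, Nr4a1, H6pd and Per2. The alternatives were another pseudocount, no filter, library totals, edgeR and DESeq2 1.42.0 on recovered reads, only the groups compared, a replicate block, and each library left out.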

Additional observations from a re-analysis of the deposited data

Results flagged for a closer look

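For 7 of the 51 genes named here and tested in both systems, and for none of the 10 receptor and target genes, every library moved one way in Pax7 against Neo and the opposite way at 96 h against 0 h of ER-Pax7. The difference between the systems was not tested for any of them. Tat, tyrosine aminotransferase, a liver target of the receptor, read −0.73 in Pax7 cells and 0.24 at 96 h (limma, adjusted p = 0.0021 and 9e-05). Egr2 read 0.81 and −0.14 (limma, adjusted p = 0.00179 and 0.0127), and Ier5 read −0.24 and 0.17 (limma, adjusted p = 0.0129 and 0.00772). Gadd45g read 0.12 and −0.86 (limma, adjusted p = 0.171 and 5.2e-06). Cry1, a clock repressor, read −0.09 and 0.19 (limma, adjusted p = 0.254 and 0.00836). The chaperone genes Hspa4 read −0.13 and 0.07 (limma, adjusted p = 0.0384 and 0.117) and Ppid −0.10 and 0.15 (limma, adjusted p = 0.107 and 0.0334). By the same measure, groups apart in opposite directions, 14 of the 119 list and receptor genes tested in both and 8.63% of all 12992 genes tested in both met it. The share called in both in opposite directions, which Tat, Egr2 and Ier5 meet, was 2.25% of all genes.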

How the results depend on the processing

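The folds of the receptor and target genes were recomputed 695 times: 662 stayed on the same side of the threshold, 24 lost the call and 9 gained one. The sign changed in 15, of which 0 were called before or after the change. The Nr3c1 call held at 96 h in 13 of 13 alternatives (−0.30 to −0.23) and in Pax7 against Neo in 8 of 8 (−0.58 to −0.47). At 12 h Nr3c1 was called by DESeq2 (−0.12; adjusted p = 0.0376). The number of the 10 genes called rose from 1 to 3, while calls over all genes rose from 992 to 1180. With libraries left out, the Nr3c1 fold ran from −0.16 to −0.10 at 12 h and from −0.12 to −0.06 at 24 h. Then 0 to 2 genes were called at 12 h, 1 to 2 at 24 h, and 2 to 3 of the 7 in Pax7 against Neo, where genes called fell from 4906 to between 1957 and 2730. Over all genes, calls ran from 11 to 31 at 24 h against 12 h (24 with every library; 98 with DESeq2) and from 1260 to 1732 at 96 h against 24 h (1921). Scaled by library totals, Pax7 against Neo gave 3 of the 7, and 3841 genes called, 2600 higher and 1241 lower, against 2424 and 2482. At 96 h against 0 h edgeR on the recovered reads, of which 100% of low values came out whole, called 5130 genes against 5129, and 6 of the 10 in both. Whether replicate numbers pair the libraries was not settled. Same-numbered libraries correlated at −0.082 to 0.144 over 18 ER-Pax7 pairs, 1 above 0.1, and differently numbered ones at −0.128 to 0.098. Among 0, 12 and 96 h same-numbered pairs ran from 0.014 to 0.088 and the others from −0.083 to 0.008. Pairs with 24 h showed no such split. The value of 0.037 for Neo and Pax7 cannot decide, because with 2 libraries a group the other pairing gives the same size with the opposite sign. With the replicate number as a block, Nr3c1 at 12 h was −0.12 (limma, adjusted p = 0.018), 2 of the 10 genes were called at 12 h, and 53 genes at 24 h against 12 h. Over all genes the block raised the calls against 0 h from 992 to 1246 at 12 h and from 5129 to 5755 at 96 h. It lowered those in Pax7 against Neo from 4906 to 3305. With the block the lists gave 0 chaperones, 1 coregulator and 1 clock gene called in Pax7 against Neo. The block also lost Tsc22d3 in Pax7 against Neo (0.10; limma, adjusted p = 0.0966). The cause of these changes was not tested. Where a library is left out, the number of libraries is also smaller. Depth limits Klf9, Hsd11b1 and Hsd11b2, which rest on under 100 reads per ER-Pax7 library, and 2 libraries per group limit Pax7 against Neo.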
